A study of Mus musculus with 8 samples.

Results

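The 6 NMDA receptor subunit genes Grin1, Grin2a, Grin2b, Grin2c, Grin2d and Grin3a were followed in mouse medial prefrontal cortex 1 h after a single training session. They were chosen by name, and all 6 had a row among the 22609 rows of the deposited expression table. All 6 passed the filter on low values and were among the 14704 genes tested. NMDA receptors are glutamate-gated cation channels of the excitatory synapse. Receptors with GluN2 subunits open when glutamate and a co-agonist, glycine or D-serine, are bound. Depolarisation of the membrane relieves their block by magnesium, and the calcium they admit starts the signalling that changes synaptic strength. Each receptor contains GluN1, encoded by Grin1, together with GluN2 subunits (Grin2a to Grin2d) or GluN3 subunits (Grin3a and Grin3b), and in the forebrain GluN2B predominates early in development while GluN2A rises with maturation.

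RNA came from the anterior cingulate part of the medial prefrontal cortex of both hemispheres, from B6.SJL mice aged 3 months. In the fear conditioning group (4 samples), mice explored a chamber for 3 min, received 2 foot shocks (0.8 mA for 2 s, at an interval of 30 s) and remained there for another 15 s. In the context control group (4 samples), mice went through the same chamber session with no shock. The samples of a group are biological replicates by the series text, which does not say whether a sample is 1 mouse, and each library is named by its group and the replicate number in its title, as control 1 to 4 and conditioned 1 to 4. No transgene, Cre driver or drug is named for either group.

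Each value is a read count of a gene multiplied by 1 factor per library, called the scaled count, and carries no correction for gene length. Recovered gene reads ranged from 1992452 to 3565356 per library. The neuronal identity of the tissue was visible in both groups, with Slc17a7, the vesicular glutamate transporter gene of cortical excitatory neurons, at 2341 ± 540 in controls and 2575 ± 725 after conditioning, and Gad1, a GABA synthesis enzyme gene of interneurons, at 1288 ± 85.5 and 1311 ± 65.0 (SD, n = 4 per group). Of 5 cerebellar granule cell markers, a cell type rich in Grin2c, Barhl1 and Fat2 were at 0 in all 8 libraries, Gabra6 was at or below 2.73 and Cbln3 at or below 4.14. The fifth, Neurod1, averaged 63.9 ± 31.1 in controls and 64.3 ± 24.2 after conditioning. The libraries differed in how their values depended on base composition. The slope of a library's log2 deviation from the gene mean lay between 0.17 and 0.43 per 10 percentage points of transcript GC content in the 4 libraries numbered 1 and 2, and between -0.61 and -0.12 in the 4 numbered 3 and 4, over 9794 well expressed genes. The labels name no batch for these numbers. The first principal component took 58.7% of the variance of these genes and separated the same sets.

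Grin1, Grin2c and Grin2d have GC-rich transcripts (59.4%, 62.1% and 65.0%, against a median of 49.7% over the genes tested). The stretch around the annotated start of each of these 3 genes, 250 bases before it and 50 after, is printed to show the base composition at their promoters and any motif there of factors that respond to neuronal activity. The sequences are those of RefSeq on build GRCm38.p6, which matched 3 of the 6 members by symbol. All lie on the minus strand and are written 5′ to 3′, with capitals marking the motifs given after them. Grin1 is at chr2:25319138-25319437, Grin2c at chr11:115267194-115267493 and Grin2d at chr7:45866632-45866931.
Grin1: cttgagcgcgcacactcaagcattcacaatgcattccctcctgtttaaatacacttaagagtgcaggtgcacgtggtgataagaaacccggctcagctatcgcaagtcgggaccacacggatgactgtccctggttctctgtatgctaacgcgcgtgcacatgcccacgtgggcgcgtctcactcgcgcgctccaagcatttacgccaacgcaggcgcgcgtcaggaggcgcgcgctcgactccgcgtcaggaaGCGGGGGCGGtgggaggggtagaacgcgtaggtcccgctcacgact
Grin2c: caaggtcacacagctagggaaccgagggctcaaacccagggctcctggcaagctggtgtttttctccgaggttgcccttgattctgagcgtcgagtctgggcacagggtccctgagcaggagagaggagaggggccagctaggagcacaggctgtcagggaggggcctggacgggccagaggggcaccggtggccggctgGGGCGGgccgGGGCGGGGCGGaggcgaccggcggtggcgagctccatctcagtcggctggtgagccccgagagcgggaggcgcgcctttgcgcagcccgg
Grin2d: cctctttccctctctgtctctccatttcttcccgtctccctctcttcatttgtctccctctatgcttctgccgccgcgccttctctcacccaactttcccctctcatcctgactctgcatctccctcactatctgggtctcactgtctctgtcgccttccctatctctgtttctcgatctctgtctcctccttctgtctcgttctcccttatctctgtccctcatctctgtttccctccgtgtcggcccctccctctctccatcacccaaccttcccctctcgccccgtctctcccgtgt

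The GC content of these windows was 60.7% for Grin1, 70% for Grin2c and 56.0% for Grin2d, and the median over 27025 mouse promoters of the same length was 52.7%. The GC box, GGGCGG or CCGCCC on either strand, was found once in the Grin1 window at bases 9 to 14 after the start. It was found 3 times in the Grin2c window, from bases -50, -40 and -35, the last 2 overlapping by 1 base, and it was not in the Grin2d window. A GC box was present in 35.9% of all promoters. The Egr motif GCGGGGGCG, or CGCCCCCGC on the other strand, is a sequence bound by the zinc finger factors of the immediate early Egr family, and it lay in the Grin1 window at bases 5 to 13, overlapping the GC box. It was present in 2.92% of all promoters. The cAMP response element TGACGTCA was in none of the 3 windows and in 1.88% of all promoters.

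None of the 6 subunit genes passed the threshold between fear conditioning and context control, and their groups overlapped in every case. In limma over all 14704 genes, 0 genes passed at a Benjamini-Hochberg adjusted p of 0.05 (0.0%), and 0 passed in edgeR or in DESeq2 when fitted to recovered reads. At an unadjusted p under 0.05 limma had 397 genes (2.7%), edgeR 385 and DESeq2 340, and 0 of the 6 members were among the 397. Over all tested genes the groups did not overlap in 282 (1.92%), none of them a member. Of the 6 members, 5 had a log2 change above 0 and 1 below, with a median of 0.12 beside a median of 0.0095 over all genes tested.

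Grin1 encodes GluN1, the obligatory subunit that binds the co-agonist. Its scaled count was 487, 588, 324 and 486 in controls 1 to 4, and 689, 734, 444 and 302 in conditioned libraries 1 to 4. The highest pair of values and the lowest single value were all in the conditioned group, which therefore spanned the whole control range. The mean was 471 ± 109 in controls and 542 ± 204 after conditioning (SD, n = 4 per group). The log2 change was 0.15 with a standard error of 0.27 and a 95% confidence interval from -0.44 to 0.74 (limma adjusted p = 0.9998). Within replicates 1 and 2 it was 0.41 (95% confidence interval from 0.11 to 0.71, limma adjusted p = 0.638). Within replicates 3 and 4 it was -0.11 (95% confidence interval from -0.82 to 0.60, limma adjusted p = 0.972). The signs differed, but the intervals of the sets overlapped, with 2 libraries per group in each set. Between 302 and 586 reads lay behind each Grin1 value, the deepest coverage of the family. On an unstranded count, reads of the antisense gene Grin1os cannot be told from Grin1, and the GENCODE vM21 exons of the antisense gene cover 13.5% of the exonic bases of Grin1.

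**Figure D1:**
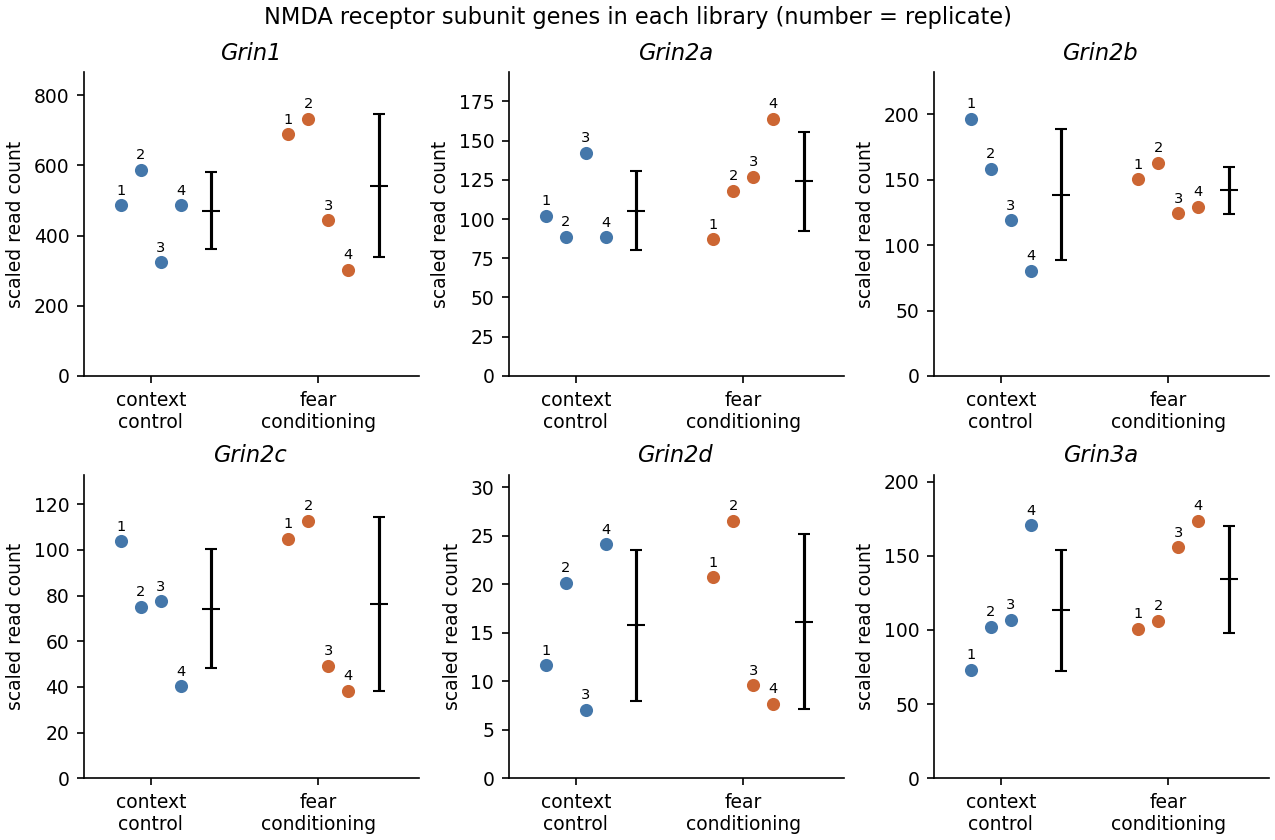
Scaled read count of each subunit gene (y axis, from 0) in 4 context control and 4 fear conditioning libraries (x axis); each point is a library with its replicate number, and the black bar is the group mean with its SD. The groups overlap for all 6 genes, and Grin1, Grin2b and Grin3a separate replicates 1 and 2 from replicates 3 and 4. For Grin1 and Grin3a the gap is less than 1 scaled count. The share of all tested genes that separate these sets was not counted.

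Grin2a encodes GluN2A, which gives fast-closing channels and is the main GluN2 subunit of mature cortical synapses along with GluN2B. Grin2a was 102, 88.6, 142 and 88.5 in controls 1 to 4. It was 87.0, 118, 127 and 164 in conditioned libraries 1 to 4. The highest Grin2a value was in conditioned library 4 and the lowest in conditioned library 1, so the conditioned group again contained the control range. The means were 105 ± 25.4 and 124 ± 31.7 (SD, n = 4 per group), a log2 change of 0.23 with a 95% confidence interval from -0.29 to 0.74 (limma adjusted p = 0.9998).

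Grin2b encodes GluN2B, whose slowly closing channels carry more calcium and bind the kinase CaMKII. Grin2b was 197, 158, 119 and 80.5 in controls 1 to 4. It was 151, 163, 124 and 130 in conditioned libraries 1 to 4. The 4 conditioned libraries lay inside the control range, and the spread was 18.1 (SD) around 142 after conditioning and 50.2 around 139 in controls. The log2 change was 0.10 with a 95% confidence interval from -0.46 to 0.66 (limma adjusted p = 0.9998). Control 4 was the lowest of all libraries, with 50 recovered reads, and without it the log2 change was -0.13 (limma adjusted p = 0.9998).

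The ratio of Grin2a to Grin2b, which is read in development as the replacement of GluN2B by GluN2A, needs no length correction when libraries are compared. It was 0.519, 0.559, 1.19 and 1.10 in controls 1 to 4, and 0.578, 0.724, 1.02 and 1.27 in conditioned libraries 1 to 4. Ratios below 1 were found in all 4 libraries numbered 1 and 2, and ratios above 1 in all 4 libraries numbered 3 and 4, whatever the group. The log2 ratio averaged -0.34 ± 0.63 in controls and -0.22 ± 0.50 after conditioning (SD, n = 4 per group). The difference of 0.13 was not larger than the spread between libraries (exact permutation p = 0.686, two-sided, over 70 assignments whose smallest possible p is 0.0286). Within the pairs of equal number the exact sign-flip permutation gave p = 0.50, where 0.125 is the smallest that 16 flips allow. The transcripts of Grin2a and Grin2b have similar GC contents, 44.8% and 45.7%, and the difference of the log2 ratio was 0.13 after GC correction too (exact permutation p = 0.686). Their longest annotated transcripts are 14634 and 24060 bases, and the correlation of a library's deviations with log2 transcript length across genes ran from -0.20 to 0.36. The part of transcript length in the ratio was not tested.

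**Figure D2:**
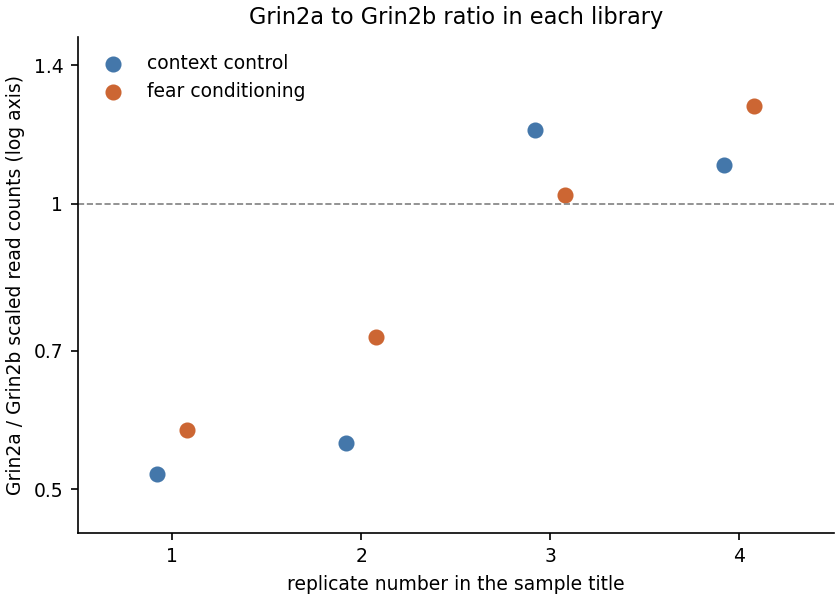
Ratio of Grin2a to Grin2b scaled counts (y axis, log scale) against the replicate number of the library (x axis), by group. The 4 libraries numbered 1 and 2 lie between 0.519 and 0.724 and the 4 numbered 3 and 4 between 1.02 and 1.27, and the groups are intermingled.

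Grin2c and Grin2d encode GluN2C and GluN2D, subunits of weak magnesium block. In forebrain, Grin2c transcripts are found in astrocytes besides neurons, and Grin2d is mainly a gene of interneurons. Grin2c was 104, 75.2, 77.6 and 40.2 in controls 1 to 4, and 105, 113, 49.2 and 38.4 in conditioned libraries 1 to 4. The conditioned libraries split into a high pair and a low pair, with the low pair numbered 3 and 4. Group means of Grin2c were 74.2 ± 26.1 and 76.3 ± 38.0 (SD, n = 4 per group), a log2 change of -0.030 with a 95% confidence interval from -0.86 to 0.80 (limma adjusted p = 0.9998). Its log2 change was 0.30 within replicates 1 and 2 (limma adjusted p = 0.739) and -0.36 within replicates 3 and 4 (limma adjusted p = 0.941).

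Grin2d was the scarcest of the 6, with 7 to 20 recovered reads per library. It was 11.6, 20.1, 7.06 and 24.1 in controls 1 to 4, and 20.7, 26.5, 9.56 and 7.68 in conditioned libraries 1 to 4. Low values occurred in each group, and control 3 had 7.06 with an exact Poisson 95% interval from 2.84 to 14.5 that covers counting error only. The group means were 15.7 ± 7.80 and 16.1 ± 9.01 (SD, n = 4 per group). The log2 change of 0.0046 had a 95% confidence interval from -1.08 to 1.09 (limma adjusted p = 0.9998), the widest interval of the 6, and from -0.86 to 0.83 after GC correction. Exons of the antisense gene Gm45441 cover 9.66% of the exonic bases of Grin2d in GENCODE vM21.

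Grin3a encodes GluN3A, a glycine-binding subunit that lowers calcium entry and is known from somatostatin interneurons and deep-layer neurons in adult cortex. Grin3a was 73.1, 102, 107 and 171 in controls 1 to 4. It was 101, 106, 156 and 174 in conditioned libraries 1 to 4. The 4 highest values were those of the 4 libraries numbered 3 and 4, 2 from each group, and the lowest was control 1. Means were 113 ± 41.1 and 134 ± 36.2 (SD, n = 4 per group). The log2 change of 0.27, the largest among the 6, had a 95% confidence interval from -0.33 to 0.87 (limma adjusted p = 0.9998) and was 0.26 within replicates 1 and 2 (limma adjusted p = 0.776) and 0.28 within replicates 3 and 4 (limma adjusted p = 0.934). All 7 tested deep-layer neuron markers also lay higher after conditioning, with a median log2 change of 0.47 and none past the threshold. Their summed values were 916 to 1675 in controls and 1235 to 2107 after conditioning. Of the 7, 2 had an unadjusted limma p under 0.05, against 2.7% of all genes, and the groups overlapped for each of them. Interneuron markers lay higher in 3 of 8 and lower in 5, with a median of -0.016. Among them Sst, the somatostatin gene, was 213 ± 38.2 in controls and 266 ± 95.3 after conditioning (log2 change 0.25, limma adjusted p = 0.9998). The part of these markers in the Grin3a values was not tested. In bulk tissue a difference in the number of cells cannot be told apart from a difference in RNA per cell. Grin3b, the other GluN3 gene, had 1 read in 1 control library and 0 in the other 7, and did not pass the filter.

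**Figure D3:**
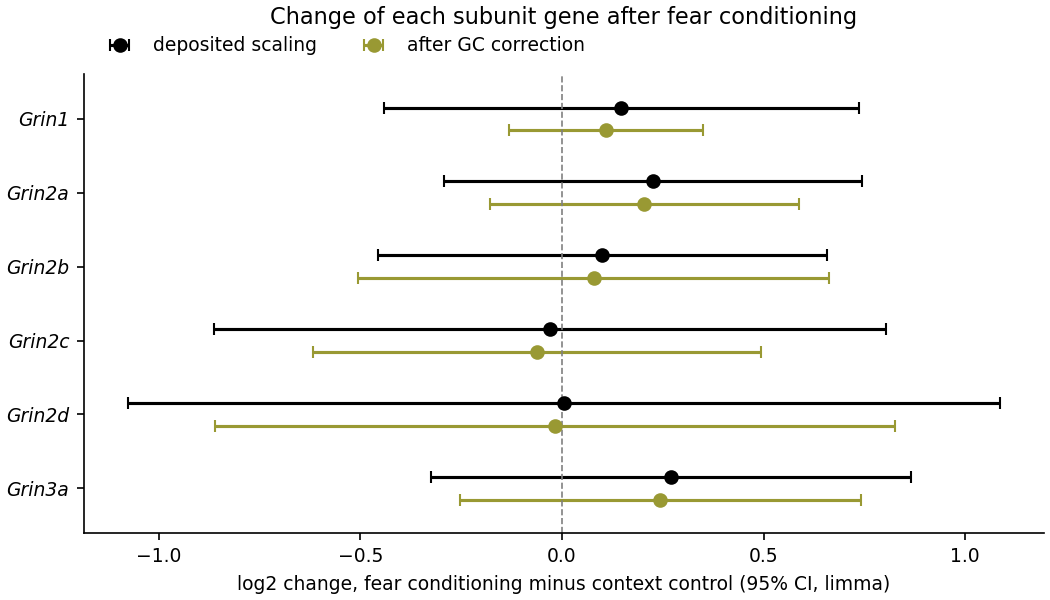
Log2 change of each subunit gene from context control to fear conditioning (x axis) with its 95% confidence interval from limma, with the deposited scaling in black and after GC correction in olive. All 12 intervals include 0, and the Grin1 interval runs from -0.44 to 0.74 before and from -0.13 to 0.35 after the correction.

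The members also differed between the libraries numbered 1 and 2 and those numbered 3 and 4, across both groups. From replicates 3 and 4 to replicates 1 and 2 the mean log2 value was higher by 0.69 for Grin1, 0.57 for Grin2b, 0.98 for Grin2c and 0.78 for Grin2d, and lower for Grin2a (-0.37) and Grin3a (-0.65). The sets did not overlap for Grin1 (487 to 734 against 302 to 486), Grin2b (151 to 197 against 80.5 to 130) and Grin3a (73.1 to 106 against 107 to 174). For Grin1 and Grin3a the nearest libraries of the sets lay within 1 scaled count of each other, inside counting error. The exact Poisson 95% interval of Grin1 in control 1, from 448 to 528, covered control 4 at 486. That of Grin3a in conditioned library 2, from 84.1 to 132, covered control 3 at 107. The sets overlapped for Grin2a, Grin2c and Grin2d. The share of all tested genes whose sets did not overlap was not counted. The first principal component, at 58.7% of the variance of the well expressed genes, separated the same sets. The separations are therefore not shown to be particular to the members. The 3 members with GC contents from 59.4% to 65.0% were all on the side of replicates 1 and 2, where high-GC transcripts read higher, and Grin2b, at 45.7%, was on that side too. Subtracting each library's curve on GC content lowered the SD of the log2 value over the 8 libraries from 0.46 to 0.14 for Grin1, from 0.62 to 0.39 for Grin2c, from 0.72 to 0.47 for Grin2d, from 0.34 to 0.25 for Grin2a and from 0.44 to 0.40 for Grin3a. For Grin2b the SD went from 0.39 to 0.48. After this correction, which was chosen after seeing the data, the log2 change of Grin1 was 0.11 with a 95% confidence interval from -0.13 to 0.35 (limma adjusted p = 0.977), and none of the 6 passed.

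**Figure D4:**
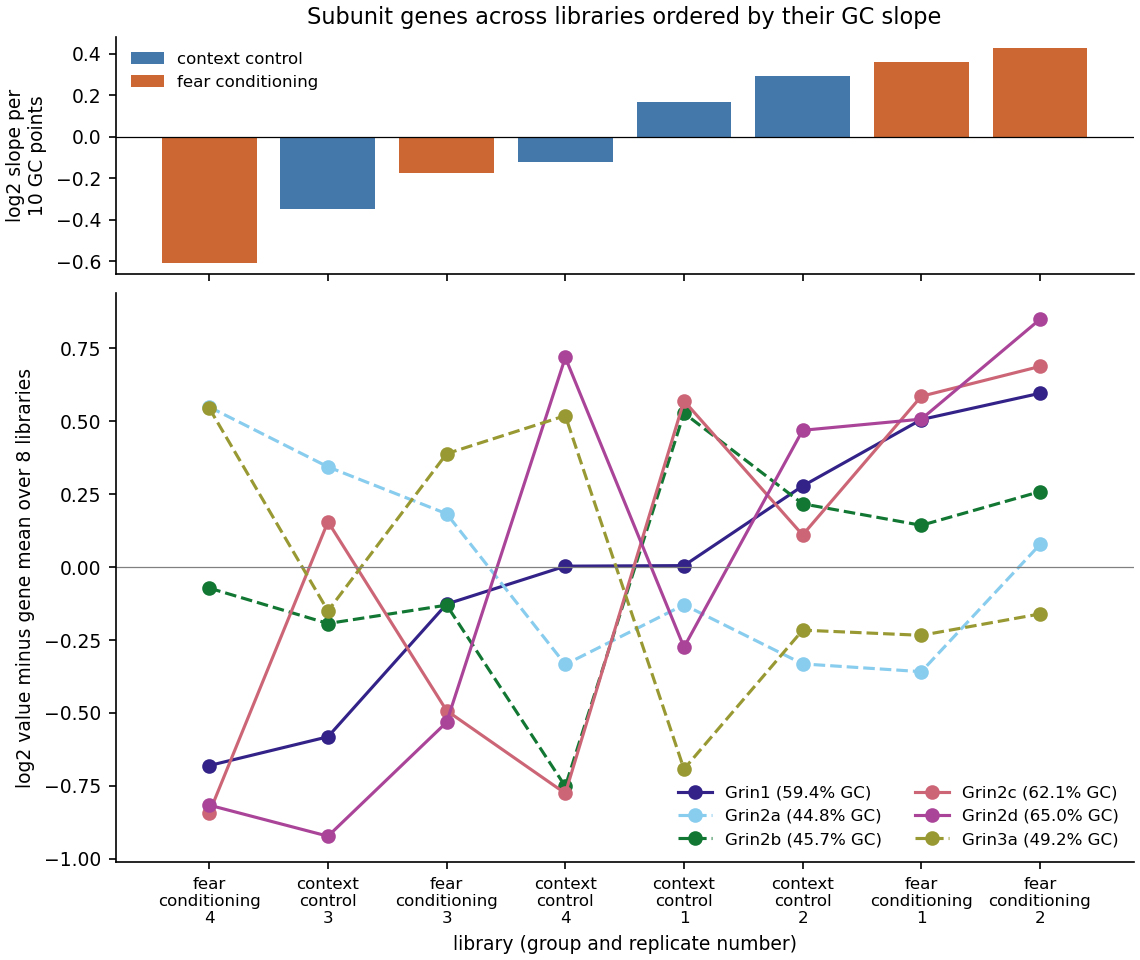
The upper bars give each library's log2 slope per 10 percentage points of GC content, from -0.61 to 0.43, and order the libraries along the x axis. The lower lines give each subunit gene's log2 value minus its mean over the 8 libraries, solid for the 3 GC-rich genes, and Grin1 runs upward from left to right.

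With the 8 libraries taken as exchangeable, 2 of the 15 pairs of subunit genes passed in Pearson correlation after Benjamini-Hochberg adjustment over the 15, and 0 in Spearman correlation. With the mean of each replicate set subtracted and pairings permuted only within the sets, an alternative chosen after seeing the data, 0 of the 15 passed and 2 had an exact p under 0.05. For Grin1 and Grin2d r was 0.88 (exact permutation p = 0.00355, adjusted p = 0.0331) and rho 0.83 (exact permutation p = 0.0154, adjusted p = 0.14). Without the 2 libraries farthest from the Grin1 median r was 0.81, after GC correction it was 0.83, and with set means subtracted it was 0.86 (exact permutation p = 0.00521, adjusted p = 0.0781). For Grin2c and Grin3a, whose set differences had opposite signs, r was -0.91 (exact permutation p = 0.00441, adjusted p = 0.0331) and rho -0.79 (exact permutation p = 0.0279, adjusted p = 0.14). For this pair r was -0.78 without the 2 libraries farthest from the Grin2c median, -0.50 after GC correction and -0.73 with set means subtracted (exact permutation p = 0.102, adjusted p = 0.307). Neither pair passed with set means subtracted. The r of Grin1 and Grin2d moved little in that step, from 0.88 to 0.86, while that of Grin2c and Grin3a went from -0.91 to -0.73. For Grin2a and Grin2b r was close to 0 (r = -0.054, exact permutation p = 0.901, adjusted p = 0.966) and 0.82 with set means subtracted (exact permutation p = 0.0642, adjusted p = 0.241). Grin1 and Grin3a went from r = -0.43 (exact permutation p = 0.295, adjusted p = 0.504) to r = 0.92 after GC correction, so the sign of a correlation between members depended on that step.

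The genes whose values most resembled each member over the 8 libraries, by Pearson correlation among about 6225 genes with a mean of at least 100, are given as a description without a test, since the highest of so many is high by selection. For Grin1 these were Phyhip (r = 0.998), Svop (0.994), a synaptic vesicle protein gene, and Med15 (0.994), a Mediator subunit gene. For Grin2a they were Gpbp1 (0.961), Tmtc1 (0.952) and Tceb3 (0.949), and for Grin2b Ttl (0.937), the tubulin tyrosine ligase gene, Dffa (0.932) and Fam53b (0.931). Grin2c was followed most closely by Psd2 (0.959), Ctnnbip1 (0.958) and Sirt2 (0.958). Grin2d was followed by Ddn (0.979), which encodes the postsynaptic protein dendrin, Gng7 (0.953) and Vegfb (0.949). Grin3a was followed by Ociad1 (0.986), Nsdhl (0.981), a cholesterol synthesis gene, and Syt4 (0.975), a synaptotagmin gene. The GC contents of the 3 nearest genes ran from 46.7% to 58.2% for Grin1, from 41.0% to 48.4% for Grin2a, from 51.8% to 56.2% for Grin2b, from 54.2% to 55.0% for Grin2c, from 54.6% to 62.6% for Grin2d and from 40.7% to 45.8% for Grin3a.

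Levels of different genes can be set side by side only per length, and here the order depended on the length used. Divided by the length of the longest GENCODE vM21 transcript, the level over the 8 libraries was 118 ± 36.6 per kb for Grin1, 16.5 ± 5.01 for Grin3a, 15.4 ± 6.16 for Grin2c, 7.84 ± 1.94 for Grin2a, 5.83 ± 1.45 for Grin2b and 2.93 ± 1.44 for Grin2d (SD, n = 8). Grin1 was above Grin3a in 8 of 8 libraries. Grin3a was above Grin2c in 3 of 8, all of them numbered 3 or 4. Grin2a was above Grin2b in 5 of 8, the 4 numbered 3 and 4 and conditioned library 2. The order of these neighbours therefore differed between libraries, and the SD pools both replicate sets. Divided by the longest coding sequence, the order was Grin1 (176 ± 54.4 per kb), Grin3a (36.3 ± 11), Grin2b (31.6 ± 7.86), Grin2a (26.1 ± 6.47), Grin2c (20.3 ± 8.12) and Grin2d (4.01 ± 1.97). Grin2c was above Grin2d in 8 of 8 libraries on this scale. Grin3a was above Grin2b, and Grin2a above Grin2c, in 4 of 8, those numbered 3 and 4. Grin2b was above Grin2a in the other 4, numbered 1 and 2, so the order of these genes changed with the replicate set. By the mean over the 8 libraries Grin1 stood first and Grin2d last with either length. Per kb of transcript, Grin2b was above Grin2d in 7 of 8 libraries. The sources used here do not name the annotation on which reads were counted, so the length that fits each gene is not known.

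The other genes of the receptor's pathway were counted in 7 lists of 93 genes, of which 91 had a row and 88 were tested. Of these, 54 lay higher and 34 lower after conditioning and 0 passed, beside 7612 higher and 7092 lower over all genes tested. No list was tested as a set. An unadjusted p under 0.05 was reached by Psph, Akap9 and Erbb4 (3 genes, 3.41%, against 2.7% of all genes), and the groups did not overlap in 5 (5.68%, against 1.92%). Neto1, which encodes an auxiliary protein of NMDA and kainate receptors, was 249, 243, 270 and 272 in controls 1 to 4 and 268, 287, 388 and 417 in conditioned libraries 1 to 4. Of the conditioned libraries, 1 lay inside the control range and 3 above it. Its log2 change was 0.37 (limma adjusted p = 0.9998), 0.17 within replicates 1 and 2 and 0.57 within replicates 3 and 4. Grina, whose product is named for the NMDA receptor, was 697 ± 220 and 720 ± 307 (SD, n = 4 per group), with a log2 change of -0.020.

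Genes of the synthesis, transport and breakdown of the co-agonists glycine and D-serine, listed as glycine and D-serine supply, lay lower in 11 of 13 tested members and higher in 2, none past the threshold, with a median log2 change of -0.20. Srr, the serine racemase gene that makes D-serine, was 405 ± 68.9 in controls and 427 ± 68.8 after conditioning (SD, n = 4 per group). Gldc, Amt and Gcsh, which belong to the glycine cleavage system that breaks glycine down, were among the 11 that lay lower (log2 changes of -0.064, -0.019 and -0.27), and the glycine uptake transporter gene Slc6a9 was among the 2 that lay higher (0.11). They are named here for their role, outside the rule for named genes. The serine synthesis genes were on the low side. Psat1, the phosphoserine aminotransferase gene, read 548, 528, 813 and 650 in controls 1 to 4 and 492, 487, 521 and 508 in conditioned libraries 1 to 4. All 4 conditioned values of Psat1 were below all 4 control values, at a log2 change of -0.32 (limma adjusted p = 0.9998), which was -0.19 without control 3. Psph, the phosphoserine phosphatase gene, was 87.9 ± 15.3 and 60.4 ± 9.68, a log2 change of -0.53 (limma adjusted p = 0.9998). All 10 astrocyte markers lay lower as well, with a median log2 change of -0.32 and summed values of 15502 to 21136 in controls and 16016 to 17274 after conditioning. Slc1a2 alone, at 10499 ± 1793 in controls and 10022 ± 1267 after conditioning (SD, n = 4 per group), made up most of this sum. The log2 changes of the 10 markers ran from -0.94 to -0.059, and that of Slc1a2 was the one nearest 0. The sums therefore mainly describe Slc1a2. Control 3 had the highest astrocyte sum. Markers of oligodendrocytes (8 of 8), their precursors (6 of 6), microglia (9 of 9) and endothelial and mural cells (9 of 9) also lay lower, with medians from -0.44 to -0.28, and their sums were highest in control 3 too. An unadjusted limma p under 0.05 was reached by 2 of 10 astrocyte, 2 of 6 precursor and 2 of 9 endothelial and mural markers. It was reached by 0 of 8 oligodendrocyte and 0 of 9 microglial markers, and by 2.7% of all genes. The groups did not overlap in 1 astrocyte and 1 precursor marker, against 1.92% of all genes. None of the 10 astrocyte markers was at 0 in any library or past the threshold, and their part in the co-agonist genes was not tested.

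The scaffold genes that anchor the receptor at the postsynaptic density lay higher in 8 of 14 and lower in 6, with a median log2 change of 0.026 and none past the threshold. Dlg4, encoding PSD-95, was 1546 ± 369 and 1680 ± 690, and Dlg3, encoding SAP102, 940 ± 78.7 and 957 ± 48.0 (SD, n = 4 per group). Akap9, which encodes the anchoring protein yotiao that binds GluN1, read 304, 310, 228 and 249 in controls 1 to 4 and 370, 375, 312 and 436 in conditioned libraries 1 to 4. The groups of Akap9 did not overlap, and its log2 change was 0.45 (limma adjusted p = 0.9998), 0.28 within replicates 1 and 2 and 0.63 within replicates 3 and 4. Dlgap2 was 174 ± 37.4 and 232 ± 46.3. Dlgap1, taken up after its values were seen because its groups did not overlap, was 2088 ± 99.3 and 2256 ± 44.0, a log2 change of 0.11.

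Receptor transport and sorting genes lay higher in 8 of 13, with a median of 0.061, and those with the smallest p were Rph3a (1532 ± 182 and 1709 ± 298), whose product retains GluN2A at synapses, and Ap2a2 (973 ± 217 and 1083 ± 248), a clathrin adaptor gene. Kinase and phosphatase genes lay higher in 15 of 19, with a median of 0.090. Among these Camk2a, the main CaMKII gene of excitatory synapses, was 5233 ± 734 and 5327 ± 1218, Csnk2a1, a casein kinase gene, 465 ± 194 and 626 ± 88.4, and Camk2g 841 ± 102 and 963 ± 129 (SD, n = 4 per group). Signalling genes below the receptor lay higher in 11 of 15, with a median of 0.044. Nos1, the neuronal nitric oxide synthase gene, was 53.9 ± 29.0 and 79.0 ± 25.5, and the small GTPase gene Rap2a was 717 ± 42.8 and 810 ± 29.2 with no overlap (log2 change 0.18, limma adjusted p = 0.9998).

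Genes of extracellular and surface modulators lay higher in 9 of 12, with a median of 0.043. Erbb4, the neuregulin receptor gene of interneurons, was 54.8, 80.6, 118 and 46.7 in controls 1 to 4 and 96.7, 91.5, 139 and 158 in conditioned libraries 1 to 4. Control 3 stood above the 2 lowest conditioned libraries, and the log2 change was 0.74 (limma adjusted p = 0.9998). The ephrin gene Efnb2 was 389 ± 34 and 475 ± 52.1 with no overlap, a log2 change of 0.29 (limma adjusted p = 0.9998). Interneuron markers had a median log2 change of -0.016, with 3 of 8 higher and 5 lower. Excitatory neuron markers had one of 0.15, with 5 of 7 higher, and striatal neuron markers one of -0.099, with 3 of 6 on each side. An unadjusted limma p under 0.05 was reached by 1 of the 6 striatal markers and by none of the interneuron or excitatory markers, against 2.7% of all genes. No list of the pathway had a member past the threshold over all genes.

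**Figure D5:**
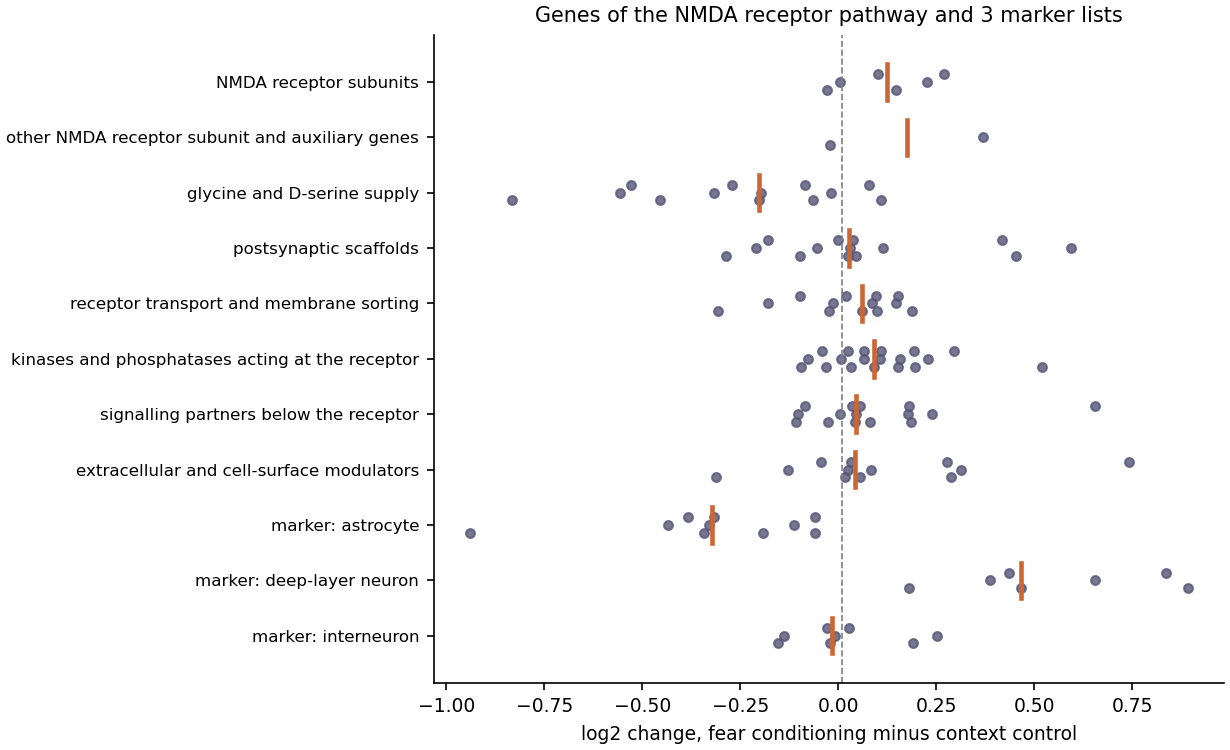
Log2 change of each tested gene (points, x axis) in the subunit list, 7 pathway lists and 3 marker lists (rows), with the median of each list as an orange bar and the median of all 14704 tested genes, 0.0095, as a dashed line. The glycine and D-serine supply and astrocyte lists have medians of -0.20 and -0.32, and the subunit list one of 0.12.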

How the data were processed

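RNA-seq of 8 samples, 4 per group by their titles, was deposited as 1 table of gene symbols. The file is named FPKM, but in all 8 columns 100% of the nonzero entries divide by a single step into whole reads (to within 0.01 of a read), the step lying between 0.831 and 1.61. So the deposited numbers were handled as signal, meaning scaled counts, and reads were recovered from them. TopHat and HTSeq, without versions, and the human build hg19 are named in the submitters' processing notes. The sources used here do not give the scaling method, the annotation or the strandedness, and with no strand setting antisense genes cannot be separated. Of the symbols, 25 had become calendar dates.

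Values were taken as log2(value + 1), so changes of low genes are understated. Genes with a mean of at least 1 were fitted in limma 3.58.1 under R 4.3.3 (eBayes with trend, two-sided, Benjamini-Hochberg over all genes, threshold 0.05). Recovered reads also went into edgeR 4.0.16 and DESeq2 1.42.0. The limma and edgeR fits were tested on simulated counts drawn with no GC slope and no replicate sets. That simulation cannot show how the fits behave on libraries that differ in these ways. Single values were compared by exact permutation of samples. The p-values of group differences set each difference against the spread between these samples. Those of correlations come from permuting the pairing of the values of 2 genes over the libraries. Members, gene lists and tests were chosen with earlier results of these data known. Named genes were the 6 members, Grin3b, Neto1, Dlg4, Dlg3, Camk2a, Srr, the 2 smallest p of each pathway list and the 3 nearest genes of each member. GC content and length came from the longest GENCODE vM21 transcript, with a value for 98.8% of tested genes, and promoters from RefSeq. GC correction subtracted a lowess curve (span 0.3) estimated from genes whose log2 value averaged above 5. The main limma fit used no pairing. Replicate numbers were taken as pairing the samples only in the replicate block and the sign-flip permutation. Same-numbered libraries deviated together (r = 0.51, 0.52, 0.25 and 0.23 over 9794 genes). Yet the nearest library of the other group had the same number only for control 1 and conditioned library 2, while control 2 and conditioned library 1, control 3 and conditioned library 4, and control 4 and conditioned library 3 were each nearest to the other.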

Additional observations from a re-analysis of the deposited data

How the results depend on the processing

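Each member's change was recomputed under 21 alternatives, among them a pseudocount of 0.1, no filter on low values, quantile normalization, TMM scaling, other tools, array weights and each library left out. GC correction, alone and with the replicate block, and the fits on replicate sets were chosen after seeing the data. Grin2a and Grin3a kept a change above 0 in all 21, and no member passed the threshold in any, with the smallest adjusted p at 0.638. The replicate block left the changes at 0.15, 0.23, 0.10, -0.030, 0.0046 and 0.27 for Grin1, Grin2a, Grin2b, Grin2c, Grin2d and Grin3a (limma adjusted p of at least 0.997), and it changed no call. Leaving out 1 library gave -0.027 to 0.40 for Grin1, 0.080 to 0.38 for Grin2a (0.080 without conditioned library 4), -0.13 to 0.29 for Grin2b, -0.29 to 0.25 for Grin2c, -0.30 to 0.28 for Grin2d, 0.084 to 0.49 for Grin3a (0.084 without control 1) and -0.073 to 0.33 for the log2 ratio of Grin2a to Grin2b. Array weights turned Grin2b to -0.067 and Grin2c to 0.052. Grin2c, near 0, was also above 0 with quantile normalization (0.017), edgeR (0.0026) and DESeq2 (0.016). Grin2d was below 0 with TMM scaling (-0.0061) and with GC correction, with or without the replicate block (-0.017 in each). Within replicates 1 and 2 Grin2b was -0.17 and Grin2c 0.30. Within replicates 3 and 4 Grin1 was -0.11, Grin2d -0.57 and the log2 ratio -0.011. The cause of these reversals was not tested. The number of genes past the threshold was 0 in limma, 0 to 1 with 1 library left out (1 without conditioned library 4) and 2 within replicates 1 and 2, and none of these was a member. The number at an unadjusted p under 0.05, 397 as reported, was 594 with the replicate block, 785 with GC correction, 843 with both, 823 with array weights, 870 with the replicate sets as a term, 1129 and 683 within each set, and 251 to 802 with 1 library left out. Depth limits Grin2d most, at 7 to 20 reads a library.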

Other observations

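Grina and Dlg4 also separated the replicate numbers and not the groups. The share of all tested genes that do so was not counted. Grina read 764 to 991 in the 4 libraries numbered 1 and 2 and 326 to 636 in the 4 numbered 3 and 4, at a GC content of 58.8%. Dlg4 read 1600 to 2252 and 857 to 1503 in the same order, and the GC content of its longest annotated transcript is 46.8%. The part of GC content in these values was not tested. Camk2a, at 53.3%, overlapped between the sets, with 4617 to 6607 and 3953 to 5937.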
